A study of Homo sapiens with 8 samples.

Results

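The chemokine receptors CXCR4, CXCR3, CCR4, CCR6, CCR7 and CCR8, the chemerin receptor CMKLR2 and the regulator RGS1 were followed in Karpas 299 cells. This human lymphoma line is CD30-positive, is of T cell origin and belongs to the anaplastic large cell type. Members were chosen by gene symbol. They and the gene lists below were picked with earlier results of these data known. Their counts and medians beside those over all probes or genes are therefore descriptions. The array annotation gave the 8 members 13 probes. Of these, 7 probes of 5 genes (CXCR4, CCR6, CCR7, RGS1 and CMKLR2) were detected often enough to be tested. Across the whole array, 12543 of 48797 probes and 8509 of 18850 named genes with a probe were kept by the same filter. All cells had 16 h of preculture and then stayed in that used medium for another 8 h. They received the ligand of CD30 fused to an Fc part (CD153-Fc) together with the agonistic anti-CD30 antibody T104, T104 alone, CD153-Fc alone, or neither (untreated), each agent at 10 µg/ml. Every group had 2 biological duplicates on Illumina HumanHT-12 v3 arrays, and the study set the natural ligand against the agonistic antibody. All data come from 1 cell line, and no group had an Fc part or a control antibody alone, so CD30 binding and the Fc part or added protein as such cannot be told apart as sources of a change.

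Chemokine receptors are G protein-coupled receptors that steer lymphocytes along gradients of chemokines. CXCR4 binds CXCL12 and holds cells in bone marrow and tissue niches, CCR7 binds CCL19 and CCL21 and draws T cells into lymph nodes, and CCR6 binds CCL20 and marks many cells of mucosal and Th17-type immunity. CXCR3 binds CXCL9, CXCL10 and CXCL11, CCR4 binds CCL17 and CCL22, CCR8 binds CCL1, and CMKLR2, formerly GPR1, binds chemerin, the product of RARRES2. RGS1 speeds GTP hydrolysis by the Gi-type alpha subunits that these receptors activate, and so dampens their signal in lymphocytes.

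Among markers of the lymphoma line, ALK, IL2RA, GZMB, PRF1, CD4 and TIA1 were detected on all 8 arrays. The probe of TNFRSF8, which encodes CD30, was detected on 2 of the 8, at normalized log2 levels of 6.29 to 6.98, and the NPM1 probe on 0. No array detected the B cell genes MS4A1, CD79A, CD79B and PAX5 or the monocyte genes CD14, LYZ, CD163 and FCGR1A, whereas CSF1R, also a monocyte marker, was detected on all 8. Arrays detected between 10713 and 12967 probes at mean intensities of 722 to 850. The log2 differences between duplicates had an SD of 0.267 with both agents, 0.232 with T104, 0.247 with CD153-Fc and 0.452 in untreated cells. Whether a change reflects more cells with the RNA or more RNA per cell cannot be told apart in these bulk samples.

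Promoter windows were available for 6 of the 8 members, with none for CCR7 or CCR8, and gave 10 windows of 300 bases from RefSeq (GRCh38.p14), each with 250 bases before and 50 after an annotated start. The NF-kB consensus motif, the AP-1 motif TGANTCA and the cAMP response element TGACGTCA were sought on both strands, since CD30 is a known activator of NF-kB. The RGS1 window (chr1:192575523-192575822, plus strand) held 1 NF-kB consensus match, shown in capitals, at positions -106 to -97 counted from the start as 0. The other 9 windows held none of the 3 motifs. One of 3 CXCR4 windows (chr2:136118100-136118399, minus strand) is set beside it as the gene with the next largest response to T104.
RGS1 promoter: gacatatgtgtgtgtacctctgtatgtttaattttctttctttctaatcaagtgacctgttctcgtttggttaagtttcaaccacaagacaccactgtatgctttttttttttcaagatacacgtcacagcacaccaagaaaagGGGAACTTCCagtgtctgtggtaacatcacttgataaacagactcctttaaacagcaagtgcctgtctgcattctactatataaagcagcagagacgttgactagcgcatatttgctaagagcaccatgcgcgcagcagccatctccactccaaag
CXCR4 promoter: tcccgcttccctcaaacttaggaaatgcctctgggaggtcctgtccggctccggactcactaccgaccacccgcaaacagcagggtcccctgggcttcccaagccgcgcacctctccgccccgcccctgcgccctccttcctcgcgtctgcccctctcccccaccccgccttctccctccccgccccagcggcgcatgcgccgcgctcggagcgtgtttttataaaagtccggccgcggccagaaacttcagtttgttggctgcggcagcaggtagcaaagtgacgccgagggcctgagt
Among 35116 such windows, 11.3% held the NF-kB consensus, 7.71% the AP-1 motif and 1.85% the cAMP response element. A match of letters is a description of the window and no measure of binding.

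Both CD30 agents raised RGS1, CXCR4 and CCR7, whereas CMKLR2 and the bright CCR6 probe were lower with T104. RGS1 had the largest change, 17.3-fold higher with T104 and 5.27-fold higher with CD153-Fc than in untreated cells. The dim CCR6 probe (ILMN_1690907) was detected on no untreated array and passed the filter through the treated groups alone. It is therefore left out of the counts in this paragraph. Of the other 6 tested probes, 4 rose and 2 fell with T104, where 9.86% of all tested probes changed (4.97% rose and 4.9% fell). With CD153-Fc, 4 rose and 2 did not pass the test, where 1.32% of all tested probes changed and 1.08% rose. With both agents, 4 rose and 2 did not pass, where 6.11% changed and 3.52% rose. Treated and untreated arrays did not overlap for 4 of the 6 probes with both agents, 6 with T104 and 6 with CD153-Fc, where this held for 46.9%, 51.2% and 41.3% of all tested probes. These 3 comparisons share the untreated arrays. At gene level, by the brightest tested probe, the median log2 change of the 5 genes was 1.68 with both agents, 1.69 with T104 and 1.07 with CD153-Fc, and the medians over all named genes were -0.02, -0.02 and -0.004.

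**Figure D1:**
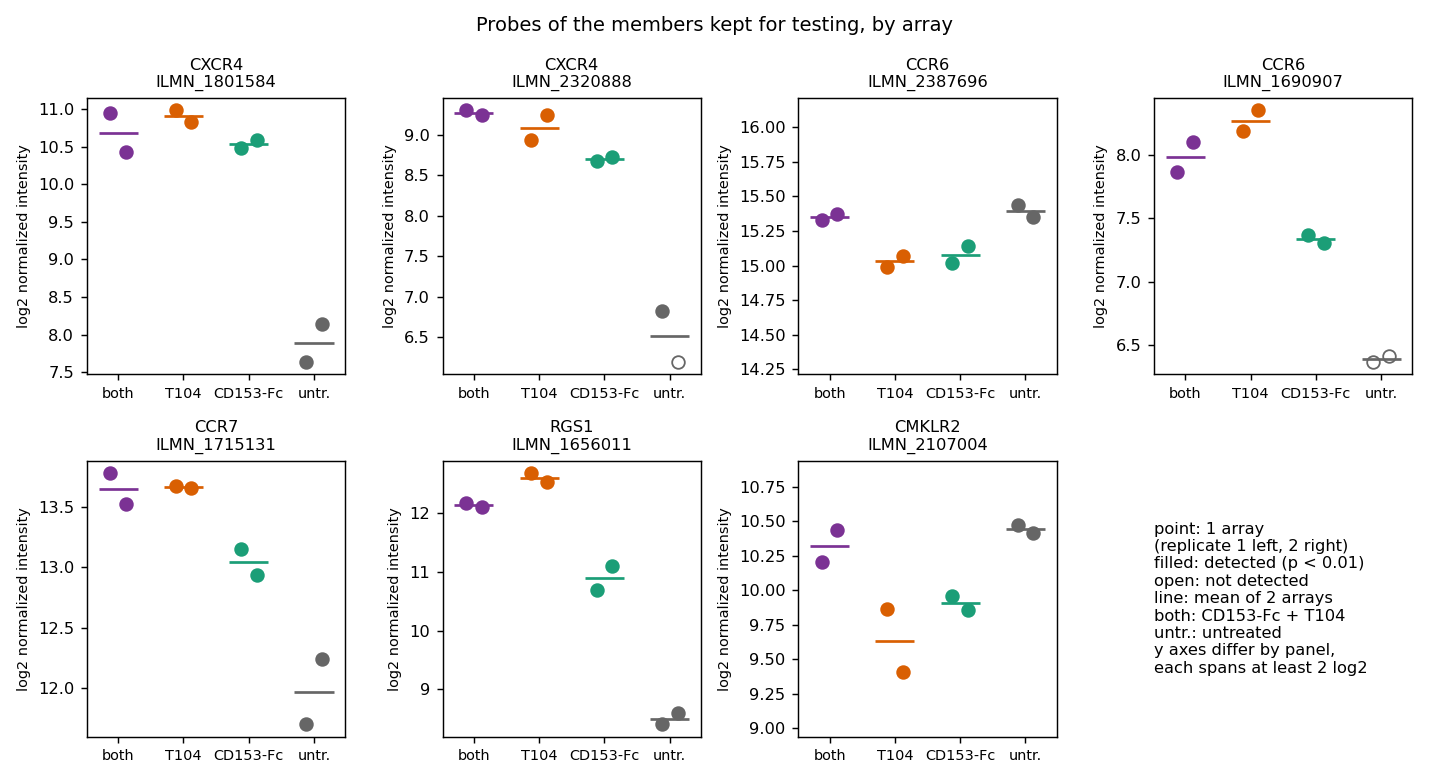
Normalized log2 intensity of each tested probe of the chemokine receptors and RGS1 on every array, by group, with 1 point per array and a bar at the group mean. RGS1, CXCR4, CCR7 and the dim CCR6 probe (ILMN_1690907) lie above untreated cells in every treated group, while CMKLR2 and the bright CCR6 probe (ILMN_2387696) are lower with either agent alone and overlap untreated cells with both.

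RGS1 had log2 intensities of 12.18 and 12.11 with both agents, 12.68 and 12.53 with T104, 10.69 and 11.09 with CD153-Fc, and 8.40 and 8.59 in untreated cells. No 2 groups overlapped, and the order ran from T104 through the combination and CD153-Fc down to untreated cells, although T104 and the combination did not differ past the test. In deposited intensity, the highest untreated array stood at 499.1 and the lowest treated one at 1642.9. The log2 change against untreated cells was 3.65 ± 0.17 (SE) with both agents (adjusted p = 2.76e-08), 4.11 ± 0.17 with T104 (6.77e-09) and 2.40 ± 0.17 with CD153-Fc (3.32e-06). These 3 changes kept their call in each alternative and with any array left out.

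CXCR4 was read by 2 tested probes, and both rose with every treatment. The brighter one (ILMN_1801584) had log2 intensities of 10.94 and 10.43 with both agents, 10.98 and 10.83 with T104, 10.49 and 10.59 with CD153-Fc, and 7.64 and 8.15 in untreated cells. All 6 treated arrays lay well above the untreated ones, and the arrays with both agents overlapped those of each single agent. It rose 6.92-fold with both agents (log2 change 2.79 ± 0.21, adjusted p = 3.02e-06), 8.08-fold with T104 (3.01 ± 0.21, 9.66e-07) and 6.27-fold with CD153-Fc (2.65 ± 0.21, 9.37e-06).

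The second CXCR4 probe (ILMN_2320888) had 9.30 and 9.24 with both agents, 8.93 and 9.24 with T104, 8.67 and 8.72 with CD153-Fc, and 6.82 and 6.20 in untreated cells, where it was detected on 1 of 2 arrays. Its changes were 2.76 ± 0.22 with both agents (adjusted p = 4.68e-06), 2.58 ± 0.22 with T104 (6.6e-06) and 2.19 ± 0.22 with CD153-Fc (9.79e-05). It shared its direction and its call with the brighter probe in all 3 comparisons. The sizes for this dim probe depended on the background correction, and without it they were 1.84, 1.69 and 1.37. A further CXCR4 probe (ILMN_2246410) was detected on 0 arrays, at intensities of 77.7 to 124.7.

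CCR7 was detected in untreated cells and rose with each treatment. Its log2 intensities were 13.78 and 13.52 with both agents, 13.67 and 13.65 with T104, 13.15 and 12.94 with CD153-Fc, and 11.70 and 12.24 in untreated cells. The CD153-Fc arrays lay between the other treated arrays and the untreated ones, with no overlap on either side. CCR7 was 3.20-fold higher with both agents (log2 change 1.68 ± 0.17, adjusted p = 6.56e-05), 3.23-fold with T104 (1.69 ± 0.17, 4.01e-05) and 2.10-fold with CD153-Fc (1.07 ± 0.17, 0.00697). The CD153-Fc call was lost without CD153-Fc replicate 1 (change 0.97, adjusted p = 0.154), without CD153-Fc replicate 2 (1.18, 0.0618) and with those 2 groups alone in the fit (0.123).

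The CCR6 probes went opposite ways. The first (ILMN_2387696), here called the bright one, was detected on all 8 arrays and was lower with T104. The second (ILMN_1690907), here called the dim one, was not detected in untreated cells and rose with every treatment. The remaining one (ILMN_1759635) was detected on 0 arrays, at intensities of 96.5 to 123.5. The platform annotation assigns all 3 to the same RefSeq record. Of 1981 genes with at least 2 tested probes, 296 had a called probe with T104, and 3 of these (CCR6, CREB1 and RAB3IP) had probes called in opposite directions.

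The bright CCR6 probe had log2 intensities of 15.33 and 15.38 with both agents, 14.99 and 15.07 with T104, 15.02 and 15.14 with CD153-Fc, and 15.44 and 15.35 in untreated cells. Each agent alone put both arrays below the untreated ones, while the arrays with both agents overlapped them. Its deposited intensities ran from 32061.3 to 49933.1, and the highest intensity of any probe on an array was 65143 or more. The change was -0.04 ± 0.11 with both agents (95% interval -0.27 to 0.19, adjusted p = 0.85), -0.37 ± 0.11 with T104 (0.0463) and -0.32 ± 0.11 with CD153-Fc (0.18). The T104 call was lost when any array but untreated replicate 2 was left out (changes -0.41 to -0.32, adjusted p from 0.071 to 0.266), with median scaling (0.0685), with a detection p under 0.05 as filter (0.0924), with no intensity trend (0.161) with the replicate number as a block (0.0653) and with only these groups in the fit (0.145). Conversely, without untreated replicate 2 its CD153-Fc change (-0.36) passed, in a fit where calls rose over the whole array as well.

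The dim CCR6 probe had 7.87 and 8.10 with both agents, 8.19 and 8.36 with T104, 7.37 and 7.31 with CD153-Fc, and 6.37 and 6.41 in untreated cells. Both untreated arrays were below the detection limit (detection p of 0.0132 and 0.0158). On background-corrected levels it was at least 2.40-fold higher with both agents (adjusted p = 0.000386), at least 2.93-fold with T104 (6.86e-05) and at least 1.53-fold with CD153-Fc (0.04). Its fitted changes of 1.60, 1.89 and 0.95 came to 0.90, 1.11 and 0.49 without background correction, below those limits on the log2 scale, so the limits hold only for background-corrected levels. The CD153-Fc call was lost without any 1 of the 6 treated arrays (changes 0.92 to 0.98, adjusted p from 0.0817 to 0.332), and in 6 of the other settings (0.0538 to 0.294).

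CMKLR2 was the other member with a lower level. Its tested probe had log2 intensities of 10.21 and 10.43 with both agents, 9.86 and 9.40 with T104, 9.96 and 9.86 with CD153-Fc, and 10.47 and 10.41 in untreated cells. Both single-agent groups lay below untreated cells, and the arrays with both agents overlapped them. The change was -0.12 ± 0.18 with both agents (95% interval -0.51 to 0.27, adjusted p = 0.727), -0.81 ± 0.18 with T104 (0.012) and -0.54 ± 0.18 with CD153-Fc (0.18). The T104 call was lost without T104 replicate 2 (-0.58) and with only these groups in the fit (adjusted p = 0.078). The CD153-Fc change (-0.57) passed without untreated replicate 2, in a fit where calls rose over the whole array as well. A further CMKLR2 probe (ILMN_1655348) was detected on 0 arrays, at intensities of 99.9 to 127.3.

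CXCR3, CCR4 and CCR8, the receptors of Th1-type, skin-homing and Th2-type T cells, were not detected on any array. The CXCR3 probe had intensities of 93.5 to 145.6 and a lowest detection p of 0.0408, the CCR4 probe 74.3 to 114.1 and 0.345, and the CCR8 probe 81.9 to 108.2 and 0.451. No change was tested for these 3 genes. Each had 1 probe, so their RNA was not detectable with these probes, which does not show that it was absent.

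**Figure D2:**
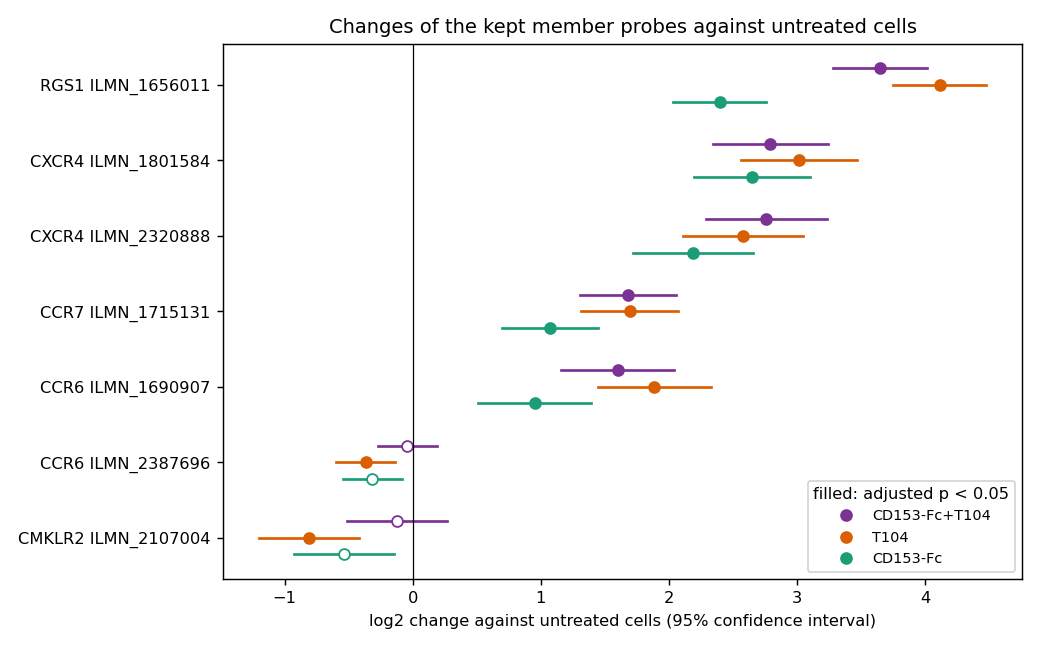
Log2 change of each tested probe of the chemokine receptors and RGS1 against untreated cells with both agents, T104 and CD153-Fc, with 95% intervals from the limma model (2 arrays per group). RGS1 ranges from 2.40 to 4.11 and CXCR4 (ILMN_1801584) from 2.65 to 3.01, while CCR6 (ILMN_2387696) and CMKLR2 lie at or below 0.

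T104 was then set against CD153-Fc, the antibody against the natural ligand at the same mass concentration. RGS1 was the member that differed, at 12.68 and 12.53 with T104 against 10.69 and 11.09 with CD153-Fc. That difference of 1.71 ± 0.17 log2, or 3.28-fold (adjusted p = 0.000261), kept its call in each alternative and with any array left out. It was 1 of 7 tested probes called, where 0.55% of all tested probes were called. The arrays of these groups did not overlap for 5 of the 7, where this held for 46.8% of all tested probes. The CXCR4 probes differed by 0.37 (95% interval -0.08 to 0.82, adjusted p = 0.72) and 0.39 (-0.08 to 0.86, 0.711), CMKLR2 by -0.27 (-0.66 to 0.12, 0.781) and the bright CCR6 probe by -0.05 (-0.28 to 0.18, 0.965). CCR7 was 0.62 higher (0.24 to 0.99, adjusted p = 0.211) and the dim CCR6 probe 0.94 higher (0.49 to 1.38, 0.0753). Both of the last were called with only these groups in the fit (adjusted p = 0.00195 for CCR7 and 0.00337 for CCR6). That fit called 461 of 12543 tested probes. Both were also called without untreated replicate 1 or 2, where calls rose over the whole array as well. The dim CCR6 probe was also called with no background correction, the authors' processed values or no intensity trend (adjusted p from 0.036 to 0.0491).

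Adding CD153-Fc to T104 changed no member past the test. Of the 7 probes, 0 were called by limma, and 3 had an unadjusted p under 0.05. Across the array 0% of tested probes were called, and 505 of 12543 had an unadjusted p under 0.05. Arrays did not overlap for 5 of the 7 probes, where this held for 38.5% of all tested probes. The difference was -0.47 for RGS1 (95% interval -0.83 to -0.10 log2, adjusted p = 1), 0.32 for the bright CCR6 probe (0.09 to 0.55, adjusted p = 1) and 0.69 for CMKLR2 (0.30 to 1.07, 0.707). The CXCR4 probes differed by -0.22 (-0.67 to 0.23) and 0.18 (-0.29 to 0.65), the dim CCR6 probe by -0.29 (-0.73 to 0.15) and CCR7 by -0.01 (-0.39 to 0.36), each with an adjusted p of 1. Leaving out untreated replicate 1 or 2 let CMKLR2 pass (adjusted p = 0.0288 and 0.0294), among 69 and 71 probes over the whole array.

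Adding T104 to CD153-Fc raised RGS1. Its log2 intensities were 12.18 and 12.11 with both agents against 10.69 and 11.09 with CD153-Fc, a difference of 1.25 ± 0.17 or 2.38-fold (adjusted p = 0.00784). It was 1 of 7 tested probes called, where 0.175% of all tested probes were called, and arrays did not overlap for 6 of the 7, where this held for 45.6%. The other differences were 0.14 and 0.57 for the CXCR4 probes (adjusted p = 0.908 and 0.501), 0.27 and 0.65 for the bright and dim CCR6 probes (0.522 and 0.391), 0.60 for CCR7 (0.328) and 0.41 for CMKLR2 (0.586). The RGS1 call was lost without CD153-Fc replicate 1 (1.05, adjusted p = 0.359), T104 replicate 1 or 2 (0.0504 and 0.0502) and replicate 1 or 2 of the combination (1.21 with 0.253 and 1.29 with 0.181). CCR7 passed with only these groups in the fit (adjusted p = 0.0125), where 190 of 12543 tested probes were called. It also passed without untreated replicate 1 or 2, and the second CXCR4 probe passed without untreated replicate 2. In those left-out fits calls rose over the whole array as well.

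The interaction was the log2 response to both agents less the summed responses to T104 and to CD153-Fc. CXCR4 responded to the combination about as to either agent alone. The RGS1 response to the combination (3.65) lay between those to CD153-Fc (2.40) and T104 (4.11). Both genes stayed far below the sum, with interactions of -2.86 ± 0.24 for RGS1 (adjusted p = 2.94e-05) and -2.87 ± 0.29 (0.000216) and -2.00 ± 0.31 (0.00565) for the CXCR4 probes. For CMKLR2 the interaction was 1.22 ± 0.25 (adjusted p = 0.0373), and the level with both agents lay near that of untreated cells. The second CXCR4 probe came to -1.22 without background correction (adjusted p = 0.0134) and to -1.29 with the authors' processed values (0.012). Thus 4 of 7 probes were called, with the dim CCR6 probe counted among the 7 but not called, where 1.16% of all tested probes were called. CCR7 had -1.09 ± 0.25 (adjusted p = 0.0542), the bright CCR6 probe 0.64 ± 0.15 (0.0652) and the dim one -1.24 ± 0.29 (0.064).

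Left-out arrays moved some of these calls. CMKLR2 lost its call without any 1 of the 6 treated arrays (0.99 to 1.45, adjusted p from 0.0609 to 0.25), with no filter (0.113), with no intensity trend (0.0702) and with the replicate number as a block (0.0594), and the second CXCR4 probe without any treated array but T104 replicate 1 (-2.03 to -1.84, 0.0544 to 0.085). Without untreated replicate 1 or 2, CCR7 (-1.36 to -0.82), the dim CCR6 probe (-1.26 to -1.22) and the bright one (0.60 to 0.68) passed as well. In those fits calls rose over the whole array too, so these passes are not particular to the members. The bright CCR6 probe also passed with no filter (adjusted p = 0.0459) and the dim one with no intensity trend (0.0395).

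**Figure D3:**
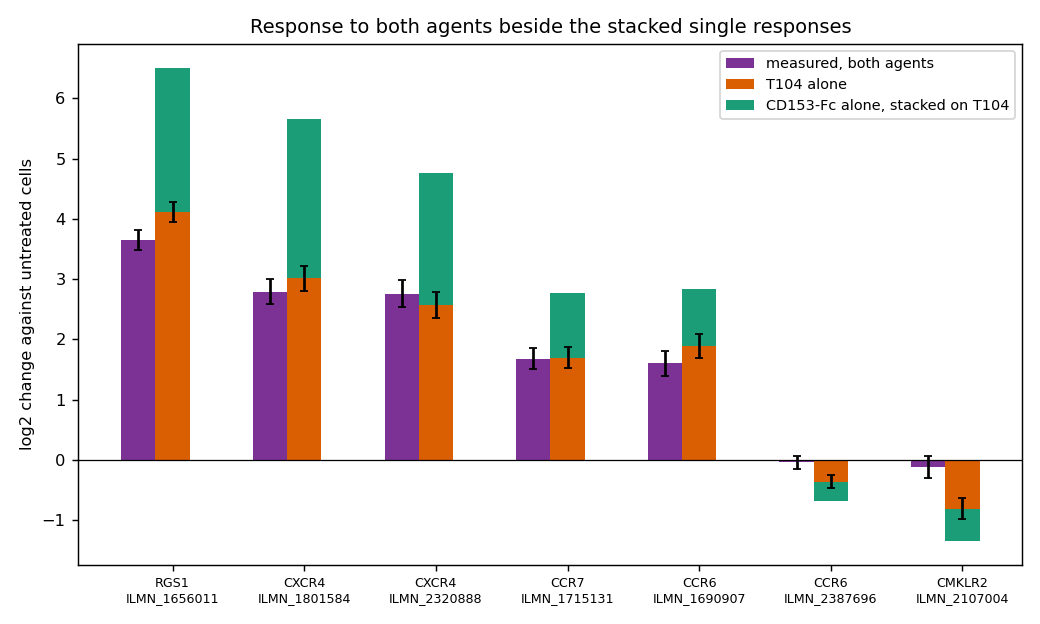
Log2 response to both agents (left bars) beside the stacked log2 responses to T104 and to CD153-Fc (right bars) for each tested probe, against untreated cells. Error bars show 1 SE from the limma model for the combination and for T104. The measured response of RGS1, 3.65, and of CXCR4 (ILMN_1801584), 2.79, lies below the stacked bar, while that of CMKLR2, -0.12, is nearer 0 than its stacked bar.

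Ligands of these receptors were listed as 11 genes, all with a probe, of which 3 were tested. CXCL10, a ligand of CXCR3, rose with T104 and with CD153-Fc. It passed the filter through treated arrays alone, so it is not set against the shares over all genes. CCL20, the ligand of CCR6, rose with T104, where 10.3% of all tested named genes changed and 5.11% rose. With CD153-Fc, neither CCL20 nor CXCL12 was called, where 1.35% of all tested named genes changed and 1.13% rose. CXCL12, the ligand of CXCR4, was detected on both untreated arrays and on neither T104 array. The lowest detected log2 signal differed by array, at 6.482 and 6.964 in untreated cells and 7.085 and 7.378 with T104. With both agents CXCL12 was not detected at 7.23 and 7.31, and in untreated cells it was detected at 7.295 and 7.191. Detection alone thus does not show a lower level. In the limma model CXCL12 passed neither with T104 (adjusted p = 0.461) nor with CD153-Fc (0.292). The other 8 (CXCL9, CXCL11, CCL17, CCL22, CCL19, CCL21, CCL1 and RARRES2) were not detected on any array. CXCL10 was not detected in untreated cells, and was at least 3.21-fold higher with T104 (8.45 and 8.36 log2, against 5.45 and 5.39 in untreated cells, adjusted p = 1.98e-06). With CD153-Fc it had 6.56 and 6.86 (adjusted p = 0.0103) and was detected on 1 of 2 arrays, so no fold is given for this pair of groups at the detection limit. The CD153-Fc call was lost without CD153-Fc replicate 1 or 2 (adjusted p from 0.0576 to 0.186). Without background correction the fitted change of 2.99 with T104 came to 1.70.

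CCL20 had log2 intensities of 8.71 and 9.38 with both agents, 10.49 and 10.12 with T104, 7.89 and 7.62 with CD153-Fc, and 7.22 and 7.27 in untreated cells. The T104 arrays stood above those of every other group, although T104 and the combination did not differ past the test (-1.26 for both agents against T104, adjusted p = 0.432). Its change was 1.80 with both agents (adjusted p = 0.000385), 3.06 ± 0.23 with T104 (2.23e-06) and 0.51 with CD153-Fc (0.309). The difference between T104 and CD153-Fc was 2.55 (adjusted p = 0.000163).

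Of 18 other chemokine receptors and decoys, 16 had a probe and 0 were tested: 15 were detected on no array and ACKR2 on 1. Of 20 other RGS genes, 19 had a probe and 7 were tested. RGS2, which acts mainly on Gq-type subunits, rose with T104, and RGS18 fell, so that 2 of 7 were called, where 10.3% of all tested named genes were. The list had a median of -0.18 log2, against -0.02 over all named genes. RGS2 had 11.25 and 11.27 with T104 and 9.47 and 9.48 in untreated cells (change 1.78 ± 0.15, adjusted p = 6.83e-06), and exceeded CD153-Fc by 1.39 (0.000608). With CD153-Fc, limma called 0 of the 7, where 1.35% of all tested named genes were called. Of the 7, 1 had an unadjusted p under 0.05, as did 1927 of 12543 tested probes over the array. The RGS18 change was -0.88 ± 0.18 with T104 (adjusted p = 0.00859), and it did not pass without T104 replicate 1 or 2 (0.0855 to 0.0928) or with only these groups in the fit (0.059).

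Downstream of the receptors, 1 of 11 and 2 of 15 tested genes of the lists of signalling components and migration effectors were called with T104, near the 10.3% of all tested named genes. Among the 11 G protein, receptor kinase and arrestin genes, GNG10, a G protein gamma subunit, rose with T104 (0.75 ± 0.18, adjusted p = 0.0178), and the list median was 0.18. Among the 15 migration effectors, RAPGEF1, an activator of Rap1, rose (1.23 ± 0.26, 0.00843) and PLCB2, a phospholipase driven by G protein subunits, fell, with a list median of 0.06. PLCB2 was not detected with T104 and was at least 1.69-fold lower there (adjusted p = 0.00131), with a fitted change of -1.32 that came to -0.78 without background correction. For CD153-Fc, limma called 0 of these 11 genes and 0 of these 15, where 1.35% of all tested named genes were called. An unadjusted p under 0.05 was held by 1 of the 11 and 3 of the 15, and by 1927 of 12543 tested probes. GNG10 and RAPGEF1 lost their T104 call without T104 replicate 1 or 2 (adjusted p from 0.0616 to 0.217 and from 0.0927 to 0.0937), and the RAPGEF1 change was 0.70 without untreated replicate 1.

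Other lymphocyte trafficking genes fell where they changed. Of 8 tested, 4 fell with T104 and 0 rose, with a list median of -0.72, where 5.17% of all tested named genes fell. These were P2RY8, a receptor that confines germinal centre B cells (-1.27 ± 0.17, adjusted p = 0.000321), ITGAL, the alpha chain of the integrin LFA-1 (-1.21 ± 0.18, 0.00112), S1PR4, a sphingosine 1-phosphate receptor (-0.99 ± 0.24, 0.0189), and ITGA4, the alpha chain of VLA-4 (-0.84 ± 0.18, 0.0105). P2RY8 had 10.82 and 10.78 with both agents, 10.72 and 10.49 with T104, 11.57 and 11.35 with CD153-Fc, and 12.04 and 11.72 in untreated cells. Its T104 arrays were the lowest and overlapped no other group, although T104 and the combination did not differ past the test. P2RY8 was 0.86 lower with T104 than with CD153-Fc (adjusted p = 0.035). For CD153-Fc, limma called 0 of the 8, where 1.35% of all tested named genes were called. Of the 8, 3 had an unadjusted p under 0.05, as did 1927 of 12543 tested probes. S1PR4 and ITGA4 lost their T104 call without T104 replicate 1 or 2 (adjusted p from 0.0816 to 0.202 and from 0.0949 to 0.116), and S1PR4 changed by -0.59 without untreated replicate 1.

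With CD153-Fc, leaving out 1 untreated array moved the changes of some of these genes. Without untreated replicate 2 they were 0.70 for GNG10, -0.59 for ITGAL, -0.57 for P2RY8 and -1.03 for S1PR4. The RAPGEF1 change was 0.56 without untreated replicate 1 and 1.62 without untreated replicate 2. These fits hold 1 untreated array, and calls rose over the whole array as well, so no call is read from them.

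**Figure D4:**
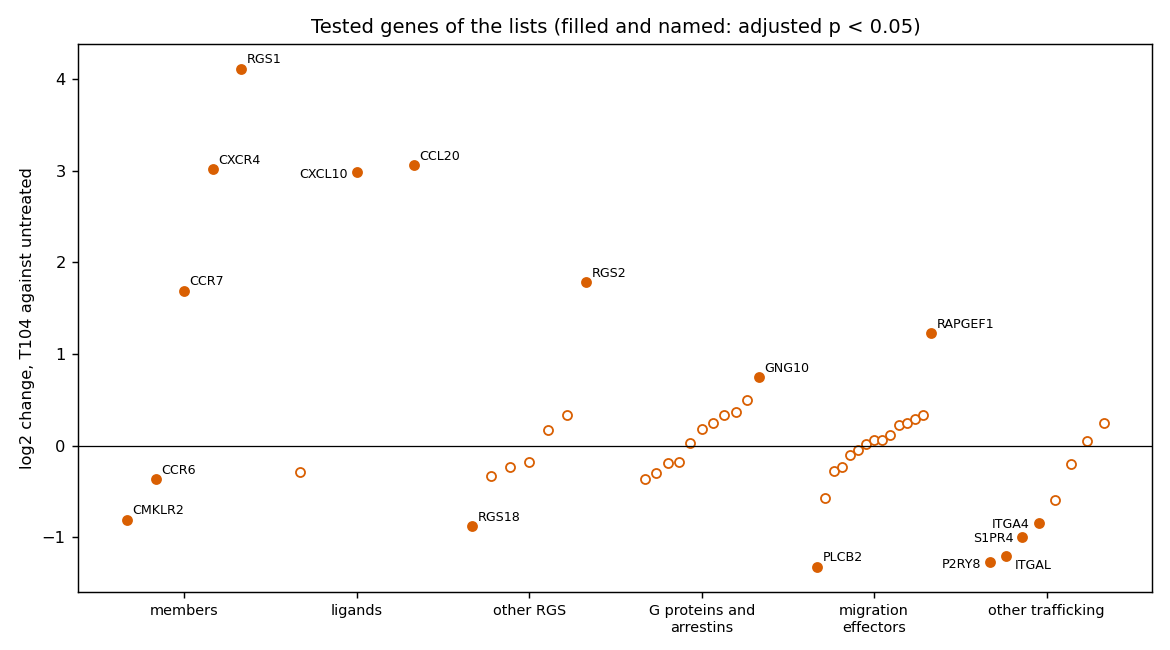
Log2 change with T104 against untreated cells of every tested gene in each list (members, their ligands, other RGS genes, G proteins and arrestins, migration effectors, other trafficking genes), 1 point per gene by its brightest tested probe. Filled, named points passed an adjusted p of 0.05, and RGS1 at 4.11, CCL20 at 3.06 and CXCR4 at 3.01 stand highest.

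Genes with the most similar pattern were sought for each member among 8508 named genes, as the smallest root mean square difference of centred log2 values over the 8 arrays. For RGS1, with a range of 4.28 log2, these were DRAM1 (0.208), TRAF1 (0.246) and IL4I1 (0.25). For CXCR4, with a range of 3.34, they were NFKBIA (0.265), LTB (0.316) and CD83 (0.323), and for CCR7, with a range of 2.07, ZMIZ2 (0.12), TICAM2 (0.123) and BATF (0.14). CMKLR2 (range 1.07) was closest to USP49 (0.085), AOC4P (0.096) and SSTR2 (0.099), and the bright CCR6 probe (range 0.45) to MAPK9 (0.065), CCDC18 (0.069) and ST13P4 (0.07). These distances are descriptions over 8 arrays that fall into 4 groups, with no test.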

How the data were processed

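Per the file headers, the authors deposited raw probe intensities (linear scale, not normalized). Each intensity has a detection p-value deposited beside it. The submitters' processing notes name GenomeStudio and the series design names BeadStudio, in no stated version. A second table of processed intensities, with column medians of 119.685 to 119.717, was deposited by the authors, with no account of its normalization in the sources used here, and served as an alternative. On a log2 scale it correlated with the raw table at r of 0.999553 or more per array, so its scale is linear and uncentred. Detection p-values rank a probe among the negative controls of its array.

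Groups came from the sample titles. Intensities were processed with limma 3.58.1 in R 4.3.3 by neqc (background inferred from detection p-values, offset 16, quantile normalization, log2). Probes with a detection p under 0.01 on at least 2 of 8 arrays were kept. Each of the 12543 kept probes was tested singly in a limma model of 4 group means with eBayes and an intensity trend (4 residual and 8.97 prior degrees of freedom), in 7 contrasts. P-values were adjusted by the Benjamini-Hochberg method across these probes, with calls at an adjusted p under 0.05. A change is a difference of mean log2 levels, given with its SE. "At least" marks a fold against a group with no detected array: the bright group's mean was set against whichever was higher on each dim array, its lowest detected signal or the probe itself.

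Probe names came from the platform annotation, updated through a RefSeq table of GRCh38.p14 (28093 probes had 1 symbol, 13 several and 20691 none); only probes with 1 symbol gave a name. The brightest kept probe stood for a gene in the lists. Named were all members, up to 4 called genes per list with the largest T104 change, up to 2 more with CD153-Fc, and the 3 nearest genes per member. Members, lists and this rule were chosen with earlier results of these data known. Replicate numbers were not used to pair the arrays in the main fit. The tests were checked on simulated data for T104 against untreated cells, with 12543 probes. They recovered 66 of 100 true changes of 1 log2 and 99 of 100 of 2 log2, with 17 false calls. The number of arrays limits the precision. Alternatives were median scaling, no background correction, the authors' processed values, other detection filters, 1 probe per gene, no intensity trend, a replicate block, only the groups compared, and leaving out each array.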

Additional observations from a re-analysis of the deposited data

Results flagged for a closer look

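The responses to the agents did not add up for 4 of the 7 tested probes, by the interaction term of the limma model, where 1.16% of all tested probes were called. The interaction was -2.87 log2 for CXCR4 (ILMN_1801584) and -2.00 for CXCR4 (ILMN_2320888; -1.22 without background correction and -1.29 with the authors' processed values), so the response to both agents was below the sum of the single responses. For RGS1 it was -2.86, also below the sum. For CMKLR2 it was 1.22, with a level under both agents near that of untreated cells. The CMKLR2 call was lost without any 1 of the 6 treated arrays, with no filter, with no intensity trend and with the replicate block. The second CXCR4 probe lost its call without any treated array but T104 replicate 1. The cause was not tested.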

How the results depend on the processing

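RGS1 and CXCR4 (ILMN_1801584) kept their calls against untreated cells and in the interaction under all 10 other settings (all but only the groups compared for the interaction, which that fit cannot give) and with any of the 8 arrays left out, as did CCR7 with T104 and with both agents, and RGS1 in T104 against CD153-Fc.

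Over all 7 tested probes, the dim CCR6 probe included here and below, 7 were called with T104, 5 with CD153-Fc and 5 with both agents against untreated cells. Over the array, 9.86%, 1.32% and 6.11% of tested probes were called. Without the dim CCR6 probe, which passed the filter through treated arrays alone, 6 remained. Of these, 4 rose and 2 fell with T104, 4 rose with CD153-Fc and 4 rose with both agents. With probes detected on all 8 arrays, or with 1 probe per gene, the CD153-Fc and combination counts were 3 and 3, because fewer member probes were tested. With only the groups compared in the fit, the bright CCR6 probe and CMKLR2 lost their T104 call against untreated cells. Those fits called 3 probes with CD153-Fc against untreated cells, 3 in T104 against CD153-Fc (1 otherwise) and 2 in both agents against CD153-Fc (1 otherwise). T104 against CD153-Fc gave 2 calls with no background correction, with the authors' processed values and with no intensity trend, and the cause was not tested. Leaving out 1 array gave 5 to 7 calls with T104, 3 to 7 with CD153-Fc and 5 to 5 with both against untreated cells, 1 to 3 in T104 against CD153-Fc, 0 to 1 in both against T104, 0 to 3 in both against CD153-Fc and 2 to 7 in the interaction. Fewer arrays enter these fits. Among the list genes, GNG10, RAPGEF1, RGS18, S1PR4 and ITGA4 with T104 (adjusted p from 0.059 to 0.0976) and CXCL10 with CD153-Fc (0.242) were not called with only the groups compared.

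With the replicate number as a block, 6, 4 and 5 probes were called with T104, CD153-Fc and both against untreated cells, 1 in T104 against CD153-Fc, 0 and 1 for the combination against T104 and CD153-Fc, and 3 in the interaction. Same-numbered arrays did not deviate together (correlations of -0.086 to 0.017), so the main fit did not pair them. These correlations cannot show whether same-numbered cultures were run together. A slide or scan block was not run, because the headers name none.

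Directions turned in changes that passed in neither setting. Under median scaling, the bright CCR6 probe gave 0.002 with both agents against untreated cells, and CCR7 gave 0.024 in both agents against T104. Leaving out 1 array gave -0.111 to 0.013 for the bright CCR6 probe in T104 against CD153-Fc, -0.143 to 0.114 for CCR7 and -0.482 to 0.035 for CXCR4 (ILMN_1801584) in both agents against T104, -0.115 to 0.401 for that CXCR4 probe in both agents against CD153-Fc, and -0.364 to 0.14 (0.006 without CD153-Fc replicate 2) for ITGA4 with CD153-Fc. The cause was not tested.

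Over all probes, 1237, 165 and 766 were called with T104, CD153-Fc and both against untreated cells. Leaving out 1 array gave 344 to 4112, 48 to 3233 and 210 to 4010, each highest without untreated replicate 2, and only the groups compared gave 460, 42 and 214. T104 against CD153-Fc went between 12 and 428 (69 in full, 461 with only its groups), both against T104 between 0 and 71 (0, and 34), both against CD153-Fc between 1 and 292 (22, and 190), and the interaction between 32 and 2141 (146 in full). The replicate block gave 107 with CD153-Fc and 13 in both against CD153-Fc, no filter 500 with both, no intensity trend 12 in both against CD153-Fc and 89 in the interaction, and detection on all 8 arrays 5 in both against CD153-Fc.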
